A study of Mus musculus with 20 samples.

Results

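Cytosolic sulfotransferases move a sulfonate group from the donor PAPS (3′-phosphoadenosine 5′-phosphosulfate) onto small molecules. Phenols, amines, steroids, bile acids, and thyroid hormones are among their substrates, and the added group usually makes them more soluble and easier to excrete. The liver, intestine, and kidney carry most of this activity, and in the mouse liver several members of the family are known to differ between the sexes and to follow the pattern of growth hormone release. A total of 9 genes were followed here, Sult1a1, Sult1b1, Sult1c2, Sult1d1, Sult1e1, Sult2b1, Sult3a1, Sult3a2, and Sult5a1, out of 55401 genes in the count table. Each symbol matched a single row. They were selected on measured values, namely their organ pattern and the higher values of Sult3a1 and Sult3a2 in KO liver, so levels across organs and all liver differences of these genes are given as a description, with no test. Another 18 rows of the table carry a Sult symbol, of which 13 reached at least 10 counts in a library and 5 stood at 0 counts in every library.

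RNA of 5 organs (liver, heart, kidney, spleen, and small intestine) was sequenced from WT mice and from Nsun6-KO mice, with 2 libraries for each tissue and genotype and 20 libraries in all. Nsun6 is a methyltransferase that places 5-methylcytosine on RNA. The KO strain was made in C57BL/6J mice by injecting Cas9 protein and a pair of guides into fertilized eggs, which removed exons 3 and 4 of Nsun6 in every tissue, and KO animals came from matings of heterozygous mice. The animals were females of 8 weeks. Total counts per library ranged from 15897446 to 44508197, with a median of 28513950. The replicates are described as biological, with no animal named, and p-values measure the spread between these libraries.

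Levels of a gene across libraries are given as CPM, counts scaled to equal library size after TMM normalization over all 20 libraries. Levels of different genes are compared as TPM, which divides by the exon length. Nsun6 itself was counted in every library, since most of its exons remain in KO mice, so that these counts do not check the deletion. Its level was 7.23 and 4.79 CPM in WT liver and 3.95 and 4.54 CPM in KO liver, and between 3.33 and 9.67 CPM over the other 16 libraries. KO lay below WT in every library of the liver, kidney, and heart, and the groups overlapped in the small intestine and spleen. The adjusted p of Nsun6 in edgeR's quasi-likelihood test was 0.999 or higher in each tissue.

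Several libraries stood apart from the rest of their group. In the small intestine, replicate 1 of both genotypes carried markers of the distal intestine and replicate 2 those of the proximal intestine. The 5 distal markers summed to 9723 CPM in WT replicate 1 and 11211 CPM in KO replicate 1, against 212 and 130 CPM in the replicate 2 libraries, with the bile acid binding protein Fabp6 most abundant in replicate 1 and Osr2 at 0 in replicate 2. Cyp2c55 of that list ran the other way in WT, at 89.2 CPM in replicate 1 and 147 CPM in replicate 2, but not in KO, at 366 and 80.0 CPM. The 7 proximal markers summed to 9353 and 10897 CPM in replicate 2 of WT and KO, against 148 and 205 CPM in replicate 1, with the fatty acid binding protein Fabp1 most abundant in replicate 2 and Pdx1 at 0 in replicate 1. WT replicate 2 of the small intestine also held 4447 CPM over 9 stomach markers, whereas KO replicate 2 held 12.3 CPM. Most of the WT sum came from Tff2 at 2577 CPM and Gkn3 at 1799 CPM. In the same WT library Gkn1, Gkn2, and Pgc were at 27.6, 31.3, and 10.1 CPM. Tff1, Muc5ac, and Atp4a were at 0.663, 0.897, and 0.156 CPM, and Atp4b was at 0. WT replicate 2 of the spleen held liver transcripts. Of 12 hepatocyte markers 11 matched a row, and they summed to 3612 CPM in that library, against 10.7 CPM in WT replicate 1, 134 CPM in KO replicate 1, and 187 CPM in KO replicate 2. Alb, the gene of serum albumin, was the most abundant of them in the spleen, and G6pc was at 0 in WT replicate 1. KO replicate 1 of the spleen held kidney transcripts, with 47.0 CPM over 7 proximal tubule markers, led by Kap at 34.02 CPM and with none at 0, against 1.18 to 2.86 CPM in the other spleen libraries. In the liver itself the same hepatocyte markers summed to 200058 CPM in WT replicate 1, 386195 CPM in WT replicate 2, 336561 CPM in KO replicate 1, and 334788 CPM in KO replicate 2. KO replicate 1 of the small intestine held cardiomyocyte transcripts, led by Myl2 at 170 CPM, against 0.969 to 2.18 CPM in the other small intestine libraries. In that KO library Myh6, Tnnt2, Tnni3, and Actc1 were at 40.2, 61.0, 62.6, and 63.5 CPM, and Ryr2 was at 8.04 CPM. The part of heart RNA in its values was not tested. The defining markers of the labelled tissues were otherwise present, with enterocyte markers led by Sis or Mep1b in the small intestine, B cell genes such as Cd79a in the spleen, Kap in the kidney, and Myl2 in the heart among the most abundant of their lists.

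Sult3a1 and Sult3a2 lie close to each other on chromosome 10 of GRCm38 and had the largest differences between genotypes in the liver among the 9 genes. Sult3a1 (ENSMUSG00000069668) occupies chr10:33857721-33879532 on the plus strand, and Sult3a2 (ENSMUSG00000090298) occupies chr10:33766424-33786704 on the minus strand, with 71016 bp between them. Their longest coding transcripts were 91.6% identical over 890 aligned bases, with a longest shared run of 93 bases, and 6.15% of the 50-base stretches of Sult3a1 occurred in Sult3a2. Reads from such stretches cannot be placed on a single gene, but most of either transcript separates the pair. The sequence before the start site of each is shown because both genes were higher in KO liver. The 250 bases before each RefSeq start (build GRCm38.p6) were searched on both strands for the TATA box TATAAA, the STAT palindrome TTCNNNGAA, the core ATCAAT of Onecut and Cux factors, and the nuclear receptor core AGGTCA. Capitals mark the matches in either direction, and each line runs 5′ to 3′ on the strand of the gene, from chr10:33857472-33857721 (plus strand) for Sult3a1 and chr10:33782116-33782365 (minus strand) for Sult3a2.
Sult3a1: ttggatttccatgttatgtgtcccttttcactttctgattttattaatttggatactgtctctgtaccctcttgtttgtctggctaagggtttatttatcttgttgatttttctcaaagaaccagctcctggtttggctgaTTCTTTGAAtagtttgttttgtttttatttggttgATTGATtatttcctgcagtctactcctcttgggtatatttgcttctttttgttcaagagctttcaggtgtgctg
Sult3a2: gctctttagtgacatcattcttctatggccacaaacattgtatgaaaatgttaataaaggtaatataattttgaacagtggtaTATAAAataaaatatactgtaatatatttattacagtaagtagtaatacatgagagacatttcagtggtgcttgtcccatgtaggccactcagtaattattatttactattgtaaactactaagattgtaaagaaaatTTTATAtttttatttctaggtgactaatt
The Sult3a1 window held TTCNNNGAA starting 109 bases before the start site and ATCAAT, on the other strand, at 74 bases. The Sult3a2 window held TATAAA at 167 bases and, on the other strand, at 29 bases. No stretch longer than 9 bases was shared by the pair. In windows of the same length before 32851 RefSeq starts, TATAAA occurred in 12.37%, TTCNNNGAA in 7.02%, ATCAAT in 6.724%, and AGGTCA in 14.02%. The Ensembl start of Sult3a2 lies further upstream than the RefSeq start used here.

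Sult3a1, which sulfonates amines and is known as a female-biased gene of the mouse liver, was abundant in the liver of both genotypes and higher in KO. Its level in the liver was 176 CPM in WT replicate 1, 156 CPM in WT replicate 2, 864 CPM in KO replicate 1, and 884 CPM in KO replicate 2. Both KO libraries lay far above both WT libraries, and replicates of a genotype were close to each other. The log2 fold change was 2.40 (standard error, SE, 0.22), a 5.29-fold higher level in KO. In bulk tissue, more cells of a type and more RNA per cell cannot be told apart. Sult3a2, its near relative, was at 2.65 and 1.16 CPM in WT liver, from 67 and 22 counts, and at 40.7 and 40.9 CPM in KO liver, from 854 and 1117 counts. The groups did not overlap, and the KO values were nearly equal while the WT values differed by 2.29-fold. Its log2 fold change was 4.401 (SE 0.35), or 21.1-fold. Leaving out each library in turn gave 2.35 to 2.46 for Sult3a1 and 3.98 to 5.11 for Sult3a2. Per exon length, Sult3a1 was the more abundant of the pair in each liver library, at 302 and 206 TPM in WT and 1171 and 1152 TPM in KO, whereas Sult3a2 was at 5.64 and 1.89 TPM in WT and 68.5 and 66.3 TPM in KO. In KO liver the TPM of Sult3a1 exceeded that of Sult1a1, which was at 886 and 1081 TPM, and in WT liver it was below Sult1a1, which was at 1407 and 1022 TPM.

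The balance within the pair also differed between the liver libraries. Sult3a2 took 1.48% (95% exact binomial interval 1.15% to 1.88%) of the summed counts of both genes in WT replicate 1 and 0.734% (0.461% to 1.11%) in WT replicate 2 of the liver. In KO it took 4.49% (4.20% to 4.80%) in replicate 1 and 4.42% (4.17% to 4.68%) in replicate 2. Both genes were chosen on this contrast, so the shares are a description. These intervals, and the one given for the spleen below, cover counting error only, and no molecular identifiers are described. The stored counting command also holds no paired-end option, so both mates of a pair may have been counted. The intervals would then be too narrow.

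The remaining members were level or lower in KO liver, except Sult5a1. Sult1e1, the estrogen sulfotransferase, was scarce, at 2.37 and 3.05 CPM in WT and 0.667 and 0.696 CPM in KO, from 60, 58, 14, and 19 counts. The KO values were lower than either WT value, and the log2 fold change was -1.98 (SE 0.50). Sult1d1, which acts on dopamine and other catecholamines, was at 1092 and 848 CPM in WT and 563 and 648 CPM in KO, again without overlap, with a log2 fold change of -0.67 (SE 0.23). Sult1b1, which acts on thyroid hormones, was at 103.4 and 137 CPM in WT and 100.9 and 72.9 CPM in KO, and Sult1c2 was at 15.6 and 15.8 CPM in WT and 15.001 and 12.9 CPM in KO. The groups of both narrowly missed each other, with log2 fold changes of -0.46 (SE 0.24) and -0.16 (SE 0.23). Sult1a1, the main phenol sulfotransferase, was at 1069 and 1013 CPM in WT and 853 and 1081 CPM in KO. Its groups overlapped, and its log2 fold change was -0.10 (SE 0.23). Sult5a1, whose substrates are little known, was at 29.0 and 12.4 CPM in WT and 49.6 and 26.4 CPM in KO, with overlapping groups and a log2 fold change of 0.89 (SE 0.49). Sult2b1, a cholesterol sulfotransferase, had at most 3 counts in a liver library and did not pass the filter on low counts. The plot of the liver libraries shows these levels together.

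**Figure D1:**
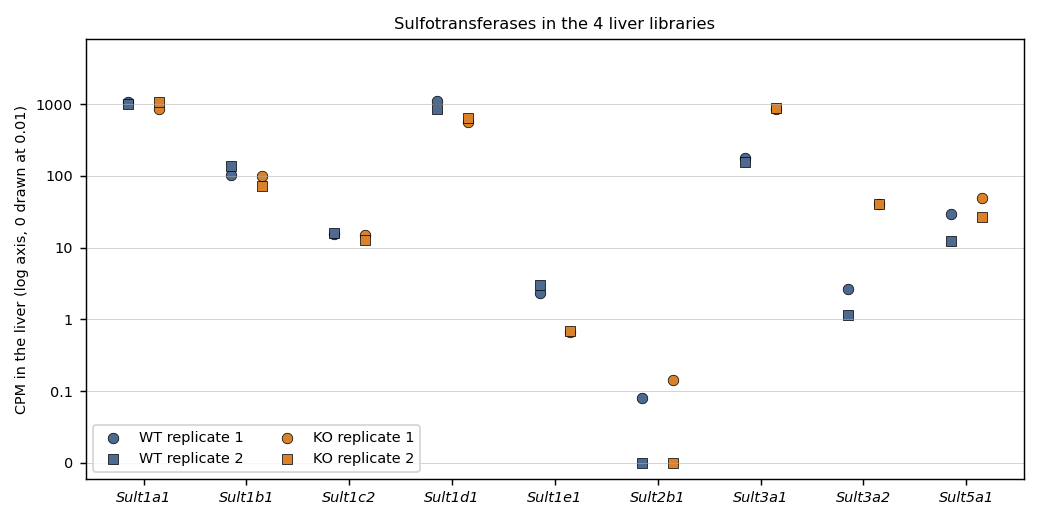
Level of each of the 9 sulfotransferases in the 4 liver libraries (CPM, log axis, with 0 drawn at 0.01); circles are replicate 1, squares replicate 2, blue WT, and orange KO. Sult3a1 rises from 156 and 176 CPM in WT to 864 and 884 CPM in KO and Sult3a2 from 1.16 and 2.65 CPM to about 41 CPM, while Sult1e1 and Sult1d1 lie lower in KO.

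Across the liver, 8 of 15729 genes tested (0.0509%) passed an adjusted p under 0.1 and a fold over 2 in edgeR, all of them higher in KO. Sult3a1 and Sult3a2 were 2 of these 8, which is the difference they were chosen for. Both KO libraries lay above both WT libraries for 2 of the 8 members that passed the filter, against 16.2% of all genes tested, and below them for 4 members, against 16.9%. The median log2 fold change of the 8 members was -0.13, and that of all genes tested was 0.00476.

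Female-biased liver genes were examined as a list of 17, all of which passed the filter. This list and those below were chosen with earlier results of these data known, so their counts and p-values are no independent support. In KO liver 15 of the 17 were higher and 2 lower, and 3 passed the test, all higher. A1bg, a secreted plasma protein gene, was at 21.1 and 25.7 CPM in WT and 287 and 318 CPM in KO. The groups were far apart, with a log2 fold change of 3.70 (SE 0.22, adjusted p = 0.0010658 in edgeR's quasi-likelihood test). Cyp3a41a, a cytochrome P450, was at 204 and 183 CPM in WT and 750 and 649 CPM in KO, with a log2 fold change of 1.87 (SE 0.22, adjusted p = 0.0431). Cux2, a repressor of male-biased genes in female liver, was at 19.4 and 23.1 CPM in WT and 55.3 and 72.4 CPM in KO, with a log2 fold change of 1.59 (SE 0.21, adjusted p = 0.0865). A1bg also passed without any one liver library, Cyp3a41a and Cux2 did not pass without KO replicate 1 (adjusted p = 0.494 and 0.248 in edgeR) or without KO replicate 2 (adjusted p = 0.467 and 0.736), and none of the 3 passed in a single fit of all 20 libraries. The median of this list was 0.63 on the log2 scale, and 14 or 15 of the 17 were higher when any liver library was left out. At its lower end stood Cyp2b13, with a log2 fold change of -0.31 (SE 0.21). Of 17 male-biased genes that passed the filter, 10 were higher and 7 lower in KO and none passed the test, and the median was 0.18. Without WT replicate 1 the split was 7 higher and 11 lower of 18 tested, with a median of -0.31, and without WT replicate 2 it was 13 higher and 4 lower, with a median of 0.70. Cyp2d9, at -1.37 (SE 0.83), and Hsd3b5, at 1.37 (SE 1.31), marked the ends of that list.

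Receptors and factors that govern the liver programme showed a single call. Of 27 tested genes, 20 were higher and 7 lower in KO, and Cux2 alone passed the test. Without KO replicate 2 the split was 14 higher and 13 lower. Nfe2l2, the regulator of the antioxidant response, stood lowest, at -0.49 (SE 0.18).

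Genes that supply the sulfonate donor did not pass the test in any tissue. Of 15 genes for sulfate uptake and PAPS supply tested in the liver, 8 were higher and 7 lower in KO, and the median log2 fold change was 0.10. Papss1, a PAPS synthase, was at 10.9 and 13.4 CPM in WT and 20.2 and 24.1 CPM in KO liver. Both KO libraries lay above both WT libraries, with a log2 fold change of 0.88 (SE 0.23, adjusted p = 0.871 in edgeR). Papss2, the more abundant PAPS synthase there, was at 668 and 317 CPM in WT and 350 and 372 CPM in KO, with overlapping groups and the lowest value of the list, -0.43 (SE 0.32). The sulfate transporter Slc13a4 stood highest, at 0.94 (SE 0.71), below 1 CPM in each liver library. Of 12 sulfatases and their activators, which remove sulfate groups, 4 were higher and 8 lower, from Sulf1 at -1.02 (SE 0.64) to Arsg at 0.61 (SE 0.28), and 7 were higher and 5 lower without WT replicate 2. Among 24 other conjugating enzymes, 17 were higher and 7 lower, and 11 higher and 13 lower without KO replicate 2, with a median of 0.19 that ran from -0.02 to 0.51 when a library was left out. They ranged from the histamine methyltransferase Hnmt at -0.72 (SE 0.19) to the glucuronosyltransferase Ugt2b37 at 1.09 (SE 0.33). None of these lists held a gene past the test in the liver.

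Among the other Sult genes of the liver none passed the test, and their direction rested on WT replicate 1. Of 9 tested, 8 were lower and 1 higher in KO, and the median log2 fold change was -0.69. Without WT replicate 1, of 10 tested 8 were higher and 2 lower, and the median was 0.85. Without WT replicate 2 the median was -1.25, with 3 higher and 7 lower. Sult2a1 and Sult2a2, which sulfonate steroids and bile acids, were at 1995 and 2108 CPM in WT replicate 1 and at 369 and 869 CPM in WT replicate 2. In KO, Sult2a1 was at 1042 and 570 CPM and Sult2a2 at 1132 and 745 CPM. WT replicate 1 was the highest library for both genes, and the groups overlapped. Sult2a5 was at 155 and 47.1 CPM in WT and 22.4 and 14.3 CPM in KO, without overlap, at a log2 fold change of -2.44 (SE 0.63, adjusted p = 0.947 in edgeR). Sult2a3 had 38.7 CPM in WT replicate 1, 1.999 CPM in WT replicate 2, and 10.1 and 2.01 CPM in KO. Sult2a7 was the single gene that was higher in KO, at 3.20 and 4.42 CPM in WT and 6.29 and 7.58 CPM in KO. The transcripts of Sult2a1 and Sult2a2 were 97.8% identical and shared a run of 204 bases, and Sult2a2 and Sult2a5 shared one of 216 bases, so that the split of reads within this group is uncertain. Sult2a4, Sult2a6, Sult2a-ps1, and Sult2a-ps2 stayed at or below 2.01 CPM in the liver. The members apart from Sult3a1 and Sult3a2 shared no run longer than 23 bases with another Sult transcript.

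Genes close to the pair were looked up as well. Within 100 kb of Sult3a1 or Sult3a2 the table held 8 other genes, of which 3 passed the filter in the liver. Gm47935, which lies within the bounds of Sult3a1 on the other strand, reached at most 34 counts and had a log2 fold change of 2.08 (SE 1.05, adjusted p = 0.999 in edgeR). Its exon shares no base with the exons of Sult3a1, and the counting command stored with the table holds no strand option, so reads from a Sult3a1 intron could be counted for it. Rsph4a, a radial spoke gene of cilia, had 0.64 (SE 0.34), and Zup1, a ubiquitin peptidase, 0.10 (SE 0.23).

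Each member had its own organ pattern. In the plot of levels by tissue, the highest tissue was the liver for 5 members (Sult1a1, Sult1e1, Sult3a1, Sult3a2, and Sult5a1), the small intestine for Sult1b1 and Sult2b1, and the kidney for Sult1c2 and Sult1d1. Sult1a1 had a median of 1041 CPM over the 4 liver libraries (853 to 1081 CPM), which was 18.4-fold over the heart with 56.7 CPM (41.5 to 103.2 CPM). The heart overlapped with the kidney at 32.6 CPM (23.5 to 65.5 CPM), the kidney with the spleen at 15.3 CPM (13.1 to 34.6 CPM), and the small intestine lay below them at 3.99 CPM (2.97 to 5.69 CPM). Sult1a1 was the single member with counts in all 20 libraries at more than 2 CPM. Sult5a1 was also counted in all 20 libraries, but at 27.7 CPM (12.4 to 49.6 CPM) in the liver and below 2.3 CPM elsewhere.

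**Figure D2:**
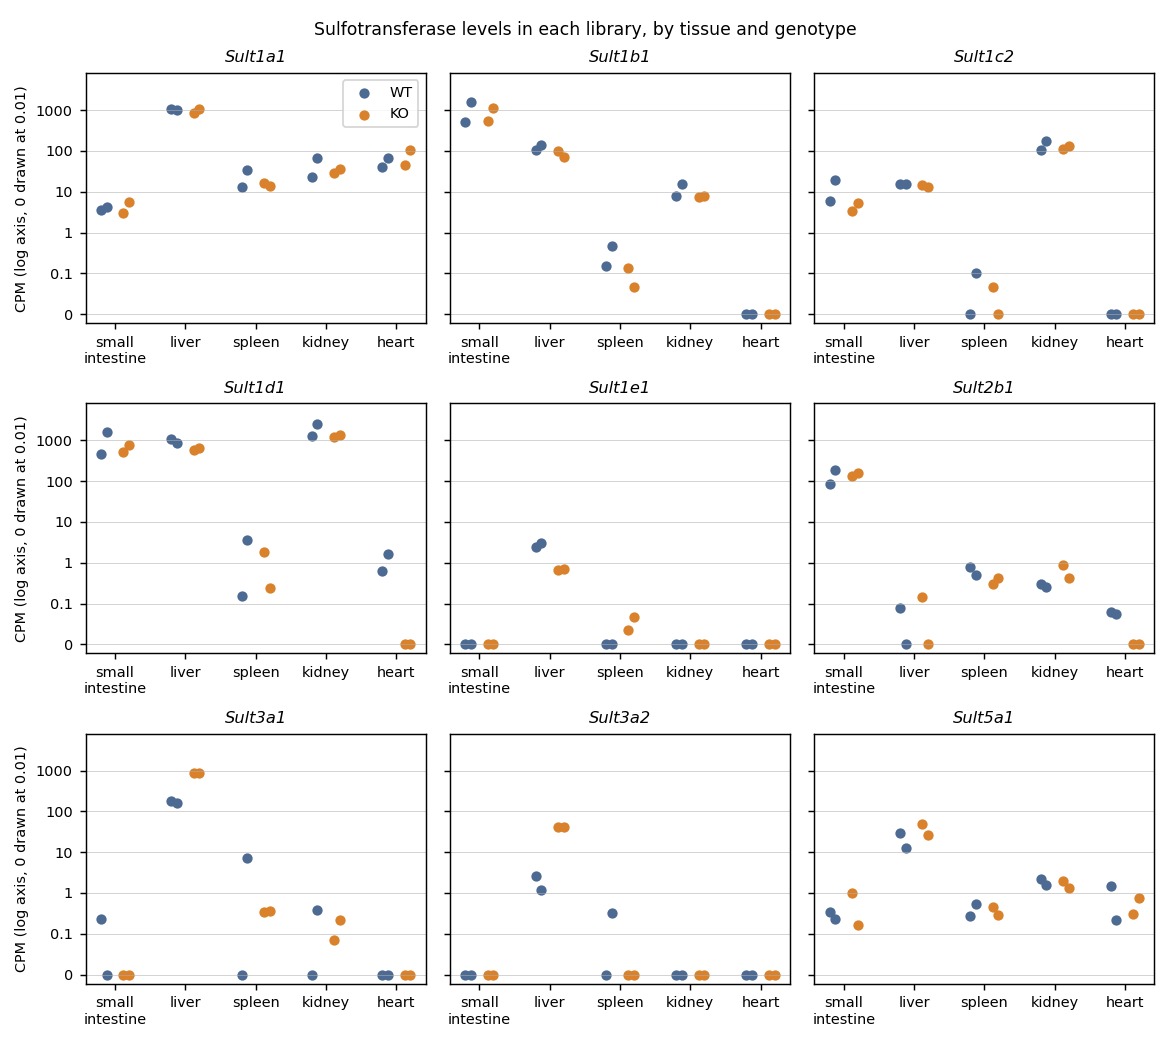
Level of each sulfotransferase in every library (CPM, log axis, with 0 drawn at 0.01), by tissue and genotype (blue WT, orange KO, 2 libraries each). Sult1a1, Sult3a1, Sult3a2, Sult1e1, and Sult5a1 are highest in the liver, Sult1b1 and Sult2b1 in the small intestine, and Sult1c2 and Sult1d1 in the kidney.

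Sult1d1 was shared by 3 organs. Its median was 1332 CPM in the kidney (1207 to 2482 CPM), 748 CPM in the liver (563 to 1092 CPM), and 634 CPM in the small intestine (472 to 1580 CPM), and the range of the small intestine overlapped those of both the liver and the kidney. The spleen, at 1.02 CPM, and the heart, at 0.308 CPM, were far below. Sult1c2 followed the kidney too, with a median of 124 CPM (104 to 176 CPM), above the liver at 15.3 CPM (12.9 to 15.8 CPM) and the small intestine at 5.59 CPM (3.33 to 19.9 CPM), which overlapped. Sult1b1 had 839 CPM in the small intestine (501 to 1558 CPM), 102.1 CPM in the liver (72.9 to 137 CPM), and 7.86 CPM in the kidney (7.36 to 15.1 CPM), without overlap between any of them. It was at 0 in the 4 heart libraries.

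Sult2b1 was close to a single-organ gene, with 148 CPM in the small intestine (85.1 to 185 CPM) and at most 0.889 CPM elsewhere. Its exons share 321 bases with Gm31597 and Lmtk3, and those of Sult1a1 share 61 bases with Sgf29. Sult1e1 was counted in the 4 liver libraries, and outside the liver it had 1 count and 2 counts in the KO spleen libraries. Sult3a2 was counted in the liver and, with 12 counts, in WT replicate 2 of the spleen. Sult3a1 had 520 CPM in the liver over both genotypes (156 to 884 CPM) and at most 0.382 CPM outside the liver apart from 7.17 CPM in that spleen library. Scaling without TMM factors or with TPM left the highest tissue of the 9 members as given here.

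The balance within the family can be read from the share of each gene in the summed TPM of Sult genes. In the kidney Sult1d1 took 84.8% to 87.3% of it and Sult1c2 8.25% to 11.01%. In the heart Sult1a1 took 96.2% to 99.2%. In the liver Sult2a2, which is outside the 9 members, was the most abundant in each library, with 40.8% and 31.7% in WT and 31.3% and 24.5% in KO. Sult3a1 took 2.18% and 3.66% in WT liver and 15.3% and 18.6% in KO liver, and Sult3a2 took 0.0408% and 0.0336% in WT and 0.896% and 1.07% in KO. For the spleen, Sult1a1 took 75.8% at the median, and 43.1% in WT replicate 2, where Sult2a2 had 20.05% and Sult3a1 11.7%.

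**Figure D3:**
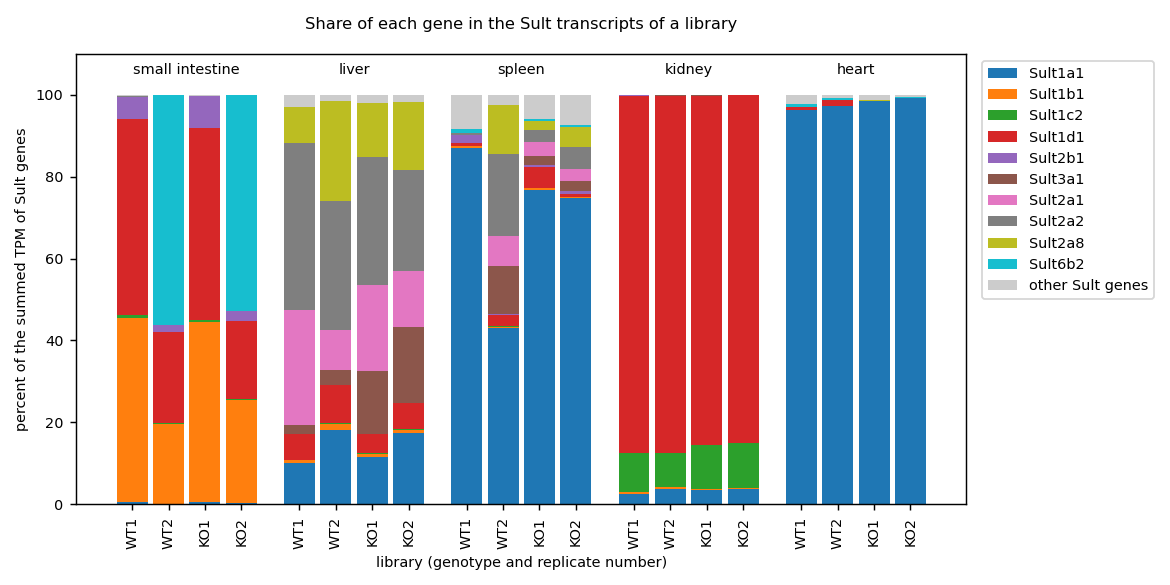
Share of each gene in the summed TPM of Sult genes in each of the 20 libraries (stacked bars, percent). Sult1d1 fills most of the kidney bars and Sult1a1 the heart bars, Sult6b2 appears in replicate 2 of the small intestine, and the share of Sult3a1 in the liver is 15.3% and 18.6% in KO against 2.18% and 3.66% in WT.

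Genes with the most similar pattern over the 20 libraries were sought by Pearson's r of log2 CPM. Libraries of a tissue share that tissue, so r mainly describes organs, and it is a description. For Sult3a1 they were Mup19, Cyp2c37, and Serpina3k (r of 0.989 to 0.990). For Sult3a2 they were Gm19089, Pnpla5, and Obox4-ps2 (0.969 to 0.975), and for Sult1e1 Mup-ps2, Mup-ps7, and 4930480G23Rik (0.983 to 0.984). Sult1d1 was followed most closely by the kinase gene Sgk2, Hnf4a, and Slc22a18 (0.979 to 0.987), and Sult1c2 by 4931406C07Rik, Slc22a18, and Hnf4aos (0.973 to 0.975). Slc22a18, a transporter, was thus close to both genes of the kidney. Sult1b1 was close to Golt1a and the disaccharidase gene Mgam (0.978 to 0.982), and Sult2b1 to Pgm2, Gnb1, and Tspan15 (0.976 to 0.977). Sult1a1 was nearest to Gm16332, Olfr1034, and Ube2e2 (0.972 to 0.976), and Sult5a1 to Vmn1r90, Gamt, and Ttpa (0.946 to 0.956). Spearman's rho picked 3 of these 27 neighbours again.

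Outside the liver the effect of the KO on the members could be tested. In the small intestine, spleen, kidney, and heart there were 20 combinations of member and tissue that passed the filter. Sult1d1 in the heart passed it through WT alone and is given below as counts, with no test. None of the other combinations passed the test in edgeR or in DESeq2, and none had an unadjusted p under 0.05 in edgeR. Their adjusted p-values in edgeR were 0.999 or higher. These fits did not include the replicate number. In the small intestine the difference between distal and proximal libraries therefore stayed in the spread within each genotype. A replicate block changed no call of a member. For comparison, 0.0% of all genes passed the test in the small intestine, kidney, and heart, and 0.223% in the spleen (0.218% higher and 0.00531% lower in KO).

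In the small intestine 6 members passed the filter, 3 higher and 3 lower in KO, and the levels of some of them moved with position along the gut. Sult1b1 was at 501 and 1558 CPM in WT replicates 1 and 2 and at 550 and 1128 CPM in KO replicates 1 and 2. Sult1d1 was at 472 and 1580 CPM in WT and at 517 and 751 CPM in KO. In both genotypes the replicate 2 libraries, which carry the proximal markers, were the higher ones, and the groups overlapped. The log2 fold changes were -0.34 (SE 0.78) and -0.74 (SE 0.74), and without WT replicate 2 they became 0.69 and 0.37. Sult2b1 was at 85.1 and 185 CPM in WT and 137 and 158 CPM in KO, with a log2 fold change of 0.08 (SE 0.47). Sult1c2 was at 5.84 and 19.9 CPM in WT and 3.33 and 5.33 CPM in KO. Its groups narrowly missed each other, which 9.52% of all genes did in this direction, at a log2 fold change of -1.62 (SE 0.75, adjusted p = 0.99993 in edgeR). Sult5a1 was instead higher in replicate 1, with 0.342 and 0.234 CPM in WT and 1.014 and 0.163 CPM in KO. Sult1a1 was at 3.65 and 4.33 CPM in WT and 2.97 and 5.69 CPM in KO, somewhat higher in replicate 2. WT replicate 2, the library with high Tff2 and Gkn3, was the highest for Sult1b1, Sult1d1, Sult2b1, and Sult1c2. The part of position in these levels, and of the tissue that Tff2 and Gkn3 came from, was not tested.

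Sult6b2, outside the 9 members, showed the split most clearly. It was at 0.371 and 0.217 CPM in replicate 1 of WT and KO and at 3499.8 and 1832 CPM in replicate 2. In replicate 2 it was the most abundant Sult gene of the small intestine, with 56.2% and 52.8% of the Sult TPM, whereas Sult1d1 led replicate 1 with 47.8% and 46.9%. Papss2, which makes the donor PAPS, had the same split, with 153 and 224 CPM in replicate 1 and 6496 and 3977 CPM in replicate 2 of WT and KO. Papss1 ran the opposite way, with 89.2 and 83.4 CPM in replicate 1 and 21.8 and 18.99 CPM in replicate 2. Between genotypes Sult6b2 had a log2 fold change of -0.96 (SE 3.84) in a fit without the replicate number, and its groups overlapped. KO was the lower library within each replicate number, from 13 counts in WT and 6 in KO for replicate 1. WT replicate 2 was the library with high Tff2 and Gkn3.

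**Figure D4:**
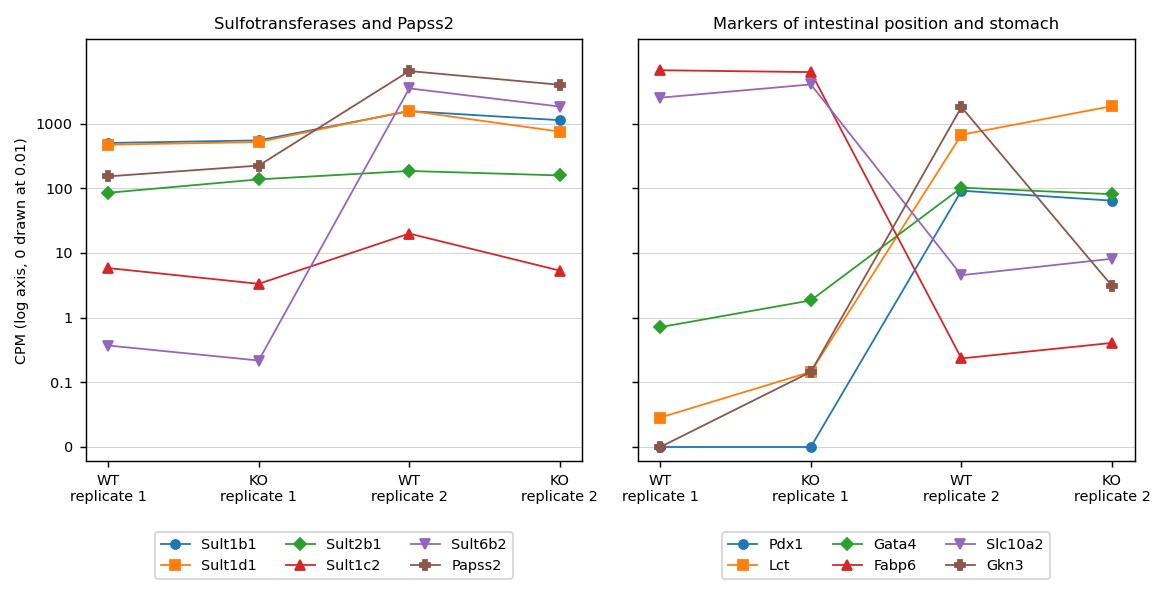
Levels in the 4 small intestine libraries (CPM, log axis, with 0 drawn at 0.01), ordered by replicate number; left, sulfotransferases and Papss2, right, markers of the proximal (Pdx1, Lct, Gata4) and distal (Fabp6, Slc10a2) intestine and of the stomach (Gkn3). Sult6b2 stands below 1 CPM in replicate 1 and at 3499.8 and 1832 CPM in replicate 2, together with the proximal markers.

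In the spleen 5 members passed the filter, all with lower values in KO, and a single WT library set most of them. Sult3a1 was at 0 CPM in WT replicate 1, 7.17 CPM in WT replicate 2, 0.342 CPM in KO replicate 1, and 0.352 CPM in KO replicate 2. The groups overlapped, with WT replicate 1 lowest and WT replicate 2 highest. The log2 fold change was -3.34 (SE 2.97). Without WT replicate 2 the WT group was a single library at 0 counts, against which a floor of 3 counts put KO at least 6.02-fold higher. Since KO alone then carried Sult3a1 past the filter, no p is given. The log2 fold change became -4.34 without WT replicate 1, when the single WT library left was the one with liver transcripts. In both fits WT was 1 library, assumed to vary like the KO libraries. Sult1d1 was at 0.154 and 3.52 CPM in WT and 1.80 and 0.235 CPM in KO, and Sult1a1 at 13.1 and 34.6 CPM in WT and 16.7 and 13.996 CPM in KO, each highest in WT replicate 2. Their log2 fold changes of -0.84 and -0.61 turned to 2.76 and 0.30 without it. KO replicate 1, the library with the next highest Sult1d1, held kidney markers, and without it the log2 fold change of Sult1d1 was -2.92. The part of kidney RNA in the Sult1d1 level was not tested. Sult2b1, at 0.769 and 0.499 CPM in WT and 0.297 and 0.423 CPM in KO, was lower in both KO libraries, which 17.3% of all genes were. Sult5a1 had between 12 and 21 counts in each spleen library and a log2 fold change of -0.11 (SE 0.68).

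The liver transcripts in the spleen could be set beside the liver libraries. Per 10000 counts of the hepatocyte markers, Sult3a1 had 8.79 and 4.05 counts in WT liver and 25.7 and 26.4 in KO liver. In WT replicate 2 of the spleen it had 19.9, from 273 counts, and in KO replicates 1 and 2 of the spleen 25.6 and 18.8, from 15 counts each. By Sult3a1 the spleen library labelled WT stood nearer to KO liver than to WT liver. A1bg gave 1.06 and 0.665 per 10000 in WT liver, 8.54 and 9.50 in KO liver, and 13.4 in WT replicate 2 of the spleen. In KO replicates 1 and 2 of the spleen it gave 13.7 and 26.4, so each of these spleen values lay above both KO liver values. Sult3a2 had 0 counts in both KO spleen libraries, beside 15 of Sult3a1 in each. In WT replicate 2 of the spleen Sult3a2 took 4.21% of the counts of the pair (95% exact binomial interval 2.19% to 7.24%), from 12 counts. Its share was 0.734% and 1.48% in WT liver and 4.42% and 4.49% in KO liver. Sult2a8 had 57.2 per 10000 in that spleen library against 63.3 to 99.9 in the liver libraries, and Sult2a2 had 21.9 against 22.3 to 105.4, both just below the range of the liver. Sult2a1 had 11.3 there, nearest to the 9.55 of WT replicate 2 of the liver and below the 30.9 and 17.02 of KO liver. The genotype labels of these libraries could not be checked with the counts of Nsun6. The part of liver RNA in the spleen differences was not tested beyond the values without this library. The plot of Sult3a1 and Sult3a2 in liver and spleen shows these ratios.

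**Figure D5:**
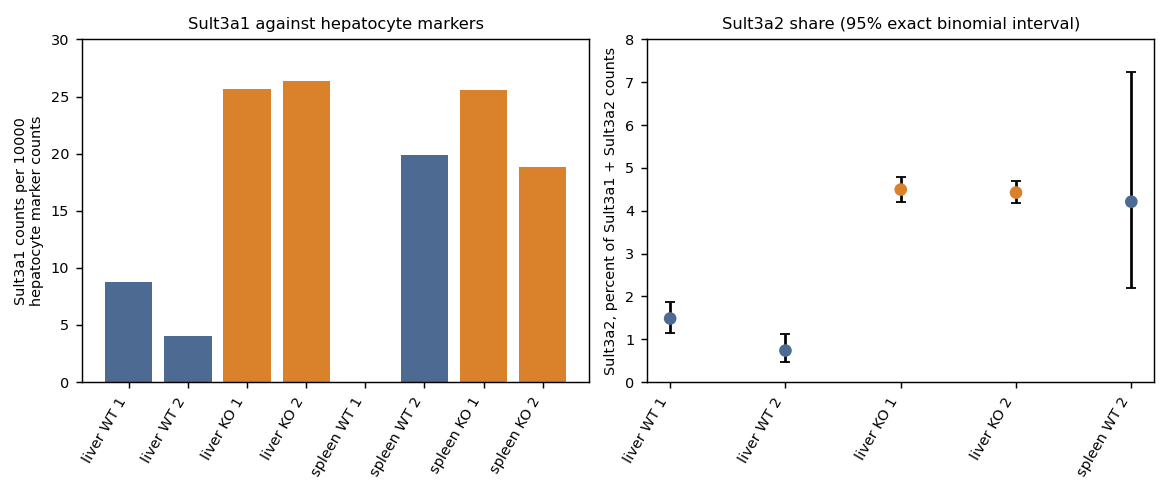
Left, Sult3a1 counts per 10000 counts of hepatocyte markers in the liver and spleen libraries (bars; WT replicate 1 of the spleen has 0 counts of Sult3a1). Right, share of Sult3a2 in the counts of Sult3a1 and Sult3a2 in the 5 libraries where Sult3a2 was counted, with 95% exact binomial intervals; blue is WT and orange KO, and the WT spleen library lies at 4.21%.

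In the kidney 6 members passed the filter, 5 lower and 1 higher in KO. Sult1d1 was at 1284 and 2482 CPM in WT and 1207 and 1380.3 CPM in KO, and Sult1c2 at 104 and 176 CPM in WT and 114 and 135 CPM in KO. WT replicate 2 was the highest library for both, as it was for Sult1b1 (7.67, 15.1, 7.36, and 8.05 CPM) and Sult1a1 (23.5, 65.5, 29.3, and 35.9 CPM), in the order WT replicates 1 and 2 and KO replicates 1 and 2. The groups overlapped for each of these genes. The log2 fold changes were -0.54 (SE 0.53) for Sult1d1, -0.17 (SE 0.36) for Sult1c2, -0.56 (SE 0.47) for Sult1b1, and -0.44 (SE 0.53) for Sult1a1. Without WT replicate 2 they became 0.01, 0.26, 0.01, and 0.47. That library also had the highest level of the proximal tubule gene Kap, at 40024 CPM against 15412 to 33242 CPM, and the lowest of the phosphate transporter Slc34a1, at 531 CPM against 1525 to 4299 CPM, and the part of this in the result was not tested. The 7 proximal tubule markers summed to 22401 and 44478 CPM in WT and 32873 and 38755 CPM in KO, with none at 0. Sult2b1 was higher in both KO libraries, which 10.5% of all genes were (10.3% were lower in both), at 10 and 6 counts in WT and 25 and 12 counts in KO.

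In the heart 3 members passed the filter. Sult1a1 was at 41.5 and 68.7 CPM in WT and 44.7 and 103.2 CPM in KO, with overlapping groups and a log2 fold change of 0.40 (SE 0.43). Sult1d1 had 10 and 58 counts in WT and 0 counts in both KO libraries, so it passed the filter through WT alone. With a floor of 3 counts in each KO library, the mean WT level was at least 7.49-fold higher, or at least 4.15-fold for WT replicate 1 and at least 10.8-fold for WT replicate 2. Since WT alone carried it past the filter, no p is given. Its groups did not overlap in this direction, which 8.31% of all genes did (8.89% in the other direction). The 5 atrial markers moved with it, summing to 840.3 and 1506 CPM in WT and 81.1 and 533 CPM in KO, led by Myl4 or Nppa and with Bmp10 at 0 in replicate 1 of both genotypes. The 7 airway and lung markers summed to 41.6 and 69.3 CPM in WT and 11.02 and 30.5 CPM in KO, led by Scgb1a1 with none at 0. The part of atrium, airway, or other tissue in the Sult1d1 counts was not tested. Sult5a1 had 24 and 8 counts in WT and 4 and 31 counts in KO heart, with overlapping groups.

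The 3 calls among the 7 lists, all in the liver, were in the lists of female-biased genes and of receptors and factors, and the lists of sulfonation genes held none in any tissue. The lists were chosen with earlier results of these data known. Over the 7 lists, none of 88 genes tested in the small intestine passed in edgeR or DESeq2, nor of 89 for the spleen, 95 for the kidney, and 68 for the heart. An unadjusted p under 0.05 in edgeR was found for 2 of the 88 (2.39% of all genes), 2 of the 89 (5.14% of all genes), 3 of the 95 (0.638% of all genes), none of the 68 (0.703% of all genes), and 19 of the 119 tested in the liver (4.7% of all genes). The female-biased genes of the liver had a median log2 fold change of -3.25 in the spleen over 14 genes, where 12 were lower and WT replicate 2 held the liver transcripts. Without that library the WT group was a single library with 10.7 CPM over the hepatocyte markers. The lower values were not seen without WT replicate 2, and values fitted against so few WT counts give no direction or size.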

How the data were processed

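Libraries were stranded mRNA preparations. Per the methods and the submitters' processing notes, the authors trimmed reads with cutadapt, mapped them to mm10 with HISAT2 2.1.0, and counted exons per gene with featureCounts 2.0.1 (Ensembl release 102). The deposited table holds raw counts per gene. The methods name strand and pair options that the command stored in the file header lacks, so overlapping genes are uncertain. A deposited length column, the merged exon bases of a gene, was used for TPM. No count column was left unused (0 columns of no sample).

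WT and KO were compared within each tissue with edgeR 4.0.16 (TMM, filterByExpr, robust quasi-likelihood test), and a gene was called at an adjusted p (Benjamini-Hochberg) below 0.1 with more than a 2-fold difference. DESeq2 1.42.0 was an alternative. Code was tested on simulated data. Named genes were the 9 members, other Sult genes with at least 10 counts in a library, genes called or at either end of each list in the liver, genes within 100 kb of the Sult3a pair, and the 3 genes of highest r per member. Some items that this rule names are not reported here. Members, lists, and tests were chosen with earlier results of these data known. Promoter sequences are from RefSeq (GRCm38.p6), in which all 9 members had a window. Alternatives were other normalizations, filters, thresholds, a replicate block, and leaving out each library.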

Additional observations from a re-analysis of the deposited data

Results flagged for a closer look

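Sult2b1 was lower in both KO libraries of the spleen and higher in both KO libraries of the kidney. The log2 fold change in the spleen minus that in the kidney was -2.004. The difference was not tested. The counts behind it were 40 and 19 in WT spleen, 13 and 18 in KO spleen, 10 and 6 in WT kidney, and 25 and 12 in KO kidney, and the exons of Sult2b1 share 321 bases with other genes.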

How the results depend on the processing

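With 2 libraries per group, a single library decided many values. Leaving out a library leaves 1 in its group, assumed to vary like the other group. The number of members past the call thresholds in the liver, a description since they were chosen on this contrast, was 2, and 1 to 2 when a library was left out, and 0 in a single fit of all 20 libraries. For the 7 lists in the liver, 3 genes were called, against 6 with DESeq2, 8 with no filter on low counts, 6 with the replicate block, 0 in the single fit, and 1 to 18 when a library was left out. In the spleen the lists gave 2 calls with no filter and 0 to 30 when a library was left out, and the members 0 to 2, namely Sult3a1 and Sult1a1 (-1.16, adjusted p = 0.0760 in edgeR) without WT replicate 1, when the lone WT library was the one with liver transcripts. In the kidney the lists gave 0 to 16 when a library was left out. In the heart 1 member was called with no filter, Sult1d1, whose KO libraries were both at 0 counts. Spearman's rho kept 3 of 27 neighbours. The causes were not tested. Direction counts of the lists without a library, and the bounds of Sult1d1 for each WT heart library and of Sult3a1 in the spleen, were chosen after seeing the data.

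Log2 fold changes that turned direction when a library was left out ranged, in the small intestine, from -0.55 to 0.49 for Sult1a1, -1.03 to 0.69 for Sult1b1, -1.37 to 0.37 for Sult1d1, -0.38 to 0.73 for Sult2b1, and -0.83 to 1.67 for Sult5a1. In the spleen they ranged from -1.16 to 0.30 for Sult1a1, -2.92 to 2.76 for Sult1d1, -4.34 to 7.04 for Sult3a1, and -0.57 to 0.52 for Sult5a1. The 7.04 was fitted against a lone WT library at 0 counts and gives no size, the bound being at least 6.02-fold. In the kidney they ranged from -0.99 to 0.47 for Sult1a1, -0.95 to 0.0072 for Sult1b1, -0.48 to 0.26 for Sult1c2, -0.92 to 0.010 for Sult1d1, and -0.54 to 0.068 for Sult5a1. In the heart they ranged from -0.32 to 0.90 for Sult1a1 and -1.46 to 1.28 for Sult5a1. None of these passed the test in the full fit. In the liver, as a description, Sult1a1 ranged from -0.25 to 0.03.

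The replicate numbers are shared by WT and KO, and nothing states that a number marks a shared animal, litter, or day. Deviations of same-numbered libraries correlated with r of 0.570 in the small intestine, 0.365 in the heart, 0.126 in the kidney, 0.0376 in the liver, and 0.00707 in the spleen, with 2 pairs in each. The replicate block turned Sult1a1 in the small intestine to -0.00446 and changed no call of a member.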
